A study of Mus musculus with 21 samples.

Results

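The genes described here are 8 RNAs encoded by the mouse mitochondrial genome that are not mRNAs of complex I: mt-Co1, mt-Co2 and mt-Co3, mt-Cytb, mt-Atp6 and mt-Atp8, and the rRNAs mt-Rnr1 and mt-Rnr2. They were chosen by name, as the cytochrome c oxidase, cytochrome b and ATP synthase mRNAs and both rRNAs, and are 8 of the 37 genes of the mitochondrial genome and of the 55487 genes in the counts table. RNA-seq of poly-A RNA was made from the hippocampus of male wild-type C57BL/6 mice at 10 weeks of age. Maternal separation (MS) mice had been taken from the dam for 4 hr per day from postnatal day 10 to 17, as whole nests in a new cage, and most nesting material was removed from their home cages in that time, so separation and limited bedding cannot be told apart. Control mice had standard rearing (SR) and no separation. All litters had been balanced over dams and the mice were later housed with 2 same-sex littermates. The series holds 9 MS and 12 SR mice. The labels name no nest, and mice with 3 animal numbers in a row are taken here as a set, named by a letter and always of 1 condition (MS: A, B and C; SR: D, E, F and G). Sets C and G have numbers in a high range and the other 5 sets in a low range.

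The mitochondrial genome is read as long precursor RNAs that are cut into single RNAs, mostly at the tRNAs lying between the other genes. The mRNAs described here encode core membrane subunits of the respiratory chain and the ATP synthase, and these subunits are assembled with many more that are encoded in the nucleus. mt-Rnr1 and mt-Rnr2 are the rRNAs of the small and the large subunit of the mitochondrial ribosome, which makes all mitochondrially encoded proteins. In neurons most ATP comes from this chain.

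In the GRCm38 build all 8 genes lie on the + strand of the mitochondrial chromosome and have no introns: mt-Rnr1 at 70 to 1024, mt-Rnr2 at 1094 to 2675, mt-Co1 at 5328 to 6872, mt-Co2 at 7013 to 7696, mt-Atp8 at 7766 to 7969, mt-Atp6 at 7927 to 8607, mt-Co3 at 8607 to 9390 and mt-Cytb at 14145 to 15288. mt-Atp8 and mt-Atp6 overlap by 43 bases and mt-Atp6 and mt-Co3 share 1 base. The whole of mt-Atp8, with the overlap in capitals, and the place where mt-Atp6 ends and mt-Co3 begins, with the stop and start codon in capitals, are shown because reads across them belong to a pair of genes, and because mt-Atp6 and mt-Co3 differed in the results (reference sequence, 5′ to 3′).
mt-Atp8, chrM:7766-7969, +: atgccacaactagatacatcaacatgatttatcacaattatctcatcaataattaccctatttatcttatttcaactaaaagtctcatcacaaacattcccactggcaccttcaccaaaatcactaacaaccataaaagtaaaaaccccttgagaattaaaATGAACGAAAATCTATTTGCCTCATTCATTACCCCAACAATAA
mt-Atp6 end, chrM:8578-8607, +: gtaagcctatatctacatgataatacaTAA
mt-Co3 start, chrM:8607-8636, +: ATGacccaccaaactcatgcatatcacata

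The 3′ ends of the mRNAs are of 2 kinds. mt-Co1, mt-Co2, mt-Atp8 and mt-Atp6 end in a whole TAA codon in the reference, whereas mt-Co3 and mt-Cytb have 1 base past the last whole codon, a T that is known to become a stop codon when the poly-A tail is added. The ends are shown for these 2 genes and for mt-Co1, with the last codon or its part in capitals.
mt-Co1 end, chrM:6843-6872, +: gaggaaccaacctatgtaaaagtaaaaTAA
mt-Co3 end, chrM:9361-9390, +: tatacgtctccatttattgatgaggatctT
mt-Cytb end, chrM:15259-15288, +: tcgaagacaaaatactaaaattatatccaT

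The nuclear genome holds annotated copies of some of these sequences. On the minus strand of chromosome 1, Gm28661 (24614885 to 24615565) is identical to 681 of the 684 bases of mt-Co2, Gm10925 (24613974 to 24614651) to 678 of the 681 bases of mt-Atp6 and Gm28437 (24613189 to 24613971) to 783 of the 784 bases of mt-Co3. Gm29216 (24615706 to 24616197) matches the last 483 bases of mt-Co1 at 99.8% identity. The counts of Gm28661, Gm28437 and Gm10925 were close to those of the mitochondrial genes, and those of Gm29216 were far lower. Gm28661 had 100 to 100.3% of the count of mt-Co2 in a library, Gm28437 had 94.99 to 97.2% of that of mt-Co3, and Gm10925 had 112 to 116% of that of mt-Atp6. Gm29216 had 10.2 to 15.1% of the count of mt-Co1. How the counting treated reads that match 2 places is not given in the sources used here, so the levels of mt-Co2, mt-Co3, mt-Atp6 and the 3′ part of mt-Co1 are uncertain to that extent. For mt-Cytb, mt-Rnr1 and mt-Rnr2 no annotated copy of at least 95% identity over 100 bases was found.

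An MS library, A2, lay apart from all others, with a score of 27.1 on the first principal component of the 21 libraries where the others had -12.2 to 11.9, and it had 418 CPM (counts relative to the TMM-scaled total of the library) of Penk, abundant in the striatum, against 13.8 to 135 in the others, and 0.692 CPM of Dsp, a dentate granule cell gene, against 54.0 to 138. The study left out 1 outlier that it did not name. It gives 9 MS and 12 SR mice in its results, as many as the series holds with A2. Whether its outlier was A2 or a library outside the series cannot be told from its text or the labels. A2 was left out here, which leaves 8 MS mice (A1, A3, B1 to B3 and C1 to C3) and 12 SR mice. Total counts were 17276810 to 24052716 in these MS and 18368519 to 26450808 in the SR libraries, and 30449055 in A2. Among marker lists, the summed level of 10 choroid plexus genes was 56.2 to 4291 CPM in MS (median 3390) and 32.3 to 4627 CPM in SR (median 857.6), all 10 genes having a higher fitted level in MS, and 8 striatal genes, all with a higher fitted level in MS (median log2 fold change 0.47), had 86.6 to 699.6 CPM in MS and 92.2 to 437.3 CPM in SR. The 8 pyramidal neuron genes, some of them shared with the neocortex, summed to 5735 to 9173 CPM in MS and 6561 to 8604 CPM in SR, with 7 of 8 lower in MS (median log2 fold change -0.07). No marker gene was at 0 in all libraries and none passed the edgeR test. The part of these cell types in the results below was not tested.

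The levels of the 8 RNAs were high and spanned a wide range. The 37 mitochondrial genes took 4.13 to 5.53% of a library in MS and 4.91 to 5.45% in SR, and the 8 genes alone 2.98 to 3.85% (median 3.325%) and 3.35 to 3.77% (median 3.527%). In 6 of the 8 MS mice, the mitochondrial share lay below that of every SR mouse, and in 1 it lay above. Per kilobase of gene, mt-Atp6 (7929 ± 810 CPM per kb, SD, n = 20 mice) and mt-Co1 (7784 ± 560) were highest, and mt-Atp6 was above mt-Co1 in 15 of the 20 mice, with a mean ratio of 1.02 ± 0.0531, so that their order was within the spread. mt-Co2 (5962 ± 457), mt-Co3 (5243 ± 425) and mt-Cytb (4029 ± 356) followed in this order in all 20 mice. Far below came mt-Rnr2 (1838 ± 193), which was above mt-Rnr1 (1663 ± 201) in 18 of 20 mice, and mt-Atp8 (318 ± 62.0) was lowest in all of them. Libraries of poly-A RNA hold an rRNA only as far as it was captured, so the per-kilobase levels of rRNAs and mRNAs do not give their ratio in the tissue. Fragments that lie across mt-Atp8 and mt-Atp6 may have been left uncounted, and mt-Atp8 had 0.982 to 1.96% of the count of mt-Atp6.

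To see whether these RNAs differed between MS and SR mice, each was tested with edgeR's quasi-likelihood test, with p-values adjusted by the Benjamini-Hochberg method over 18146 genes. None of the 8 passed an adjusted p of 0.05. In that test 2 of the 18146 genes were called (0.0110%). At an unadjusted p under 0.05, mt-Rnr2 was among the genes higher in MS (6.62% of all genes), and mt-Atp6 and mt-Cytb were among those lower in MS (4.92% of all genes). DESeq2's Wald test, in which 0.771% of genes were called, called none of the 8 either. The 6 mRNAs all had negative log2 fold changes, with a median of -0.12, and both rRNAs had positive ones of 0.03 and 0.14, while the median over all genes was 0.00084. The spread was wider in MS than in SR mice for all 8 RNAs, with coefficients of variation of 9.47 to 25.6% and 3.50 to 14.9%.

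**Figure D1:**
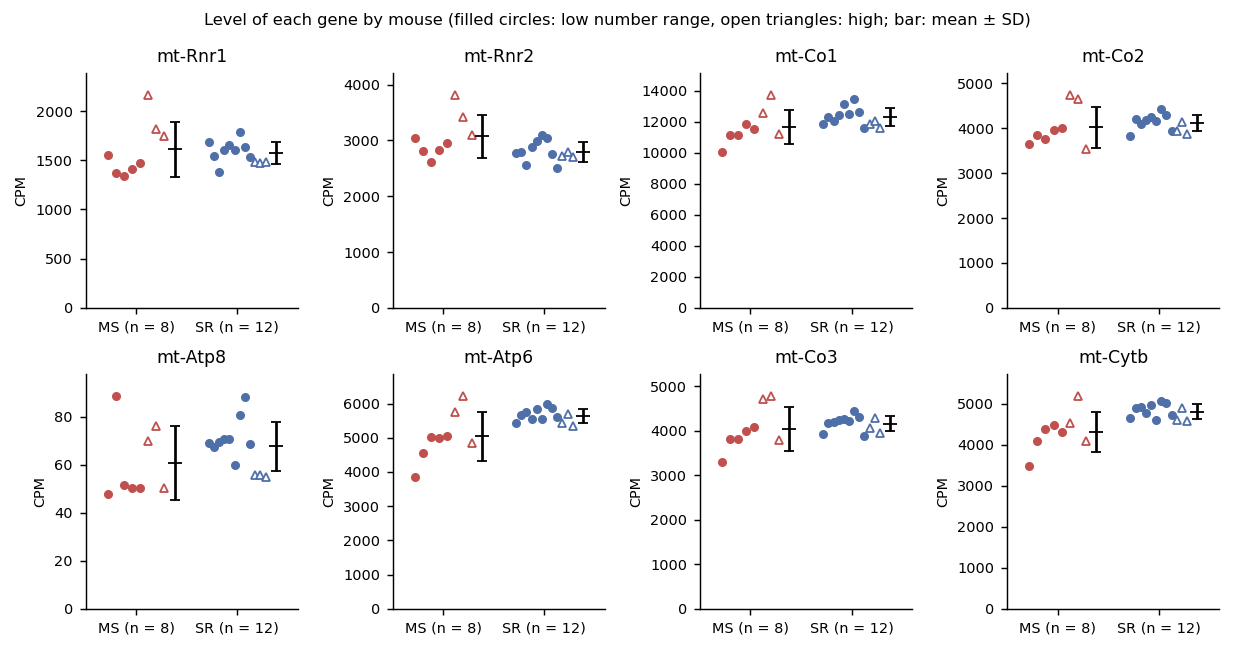
Level of the 8 RNAs in CPM (y axis) for each MS (red) and SR (blue) mouse, with filled circles for the low and open triangles for the high range of animal numbers, and the mean ± SD beside each group. For mt-Cytb 7 of 8 MS mice lie below all 12 SR mice, and for both rRNAs the open MS triangles lie at the top.

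mt-Cytb, the sole mitochondrially encoded subunit of complex III, had the smallest p of the 8. Its level was 3470 CPM in the lowest, 4340 in the median and 5197 in the highest MS mouse, and 4570, 4832 and 5071 CPM in SR. Of the 8 MS mice, 7 are below the whole SR range and C2 is above it. The means were 4316 ± 489 CPM (SD, n = 8) and 4804 ± 176 CPM (n = 12), with a log2 fold change of -0.15 (SE 0.0520, edgeR adjusted p = 0.247). Without C2 the log2 fold change was -0.20 and the edgeR adjusted p 0.0449, with A2 included they were -0.09 and 0.612, and without set A -0.10 and 0.589.

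mt-Atp6 encodes the subunit of the ATP synthase that forms the proton path together with the ring of c subunits. Its levels were 3861, 5011 and 6236 CPM (lowest, median and highest MS mouse) against 5335, 5625 and 5987 CPM in SR. There were 6 MS mice below every SR mouse and 1 above, and the SR mice hold together with a coefficient of variation of 3.50%. The log2 fold change was -0.16 (SE 0.0607, edgeR adjusted p = 0.2997), and without set A it was -0.09. mt-Atp8, a small membrane subunit of the same enzyme and the gene with the fewest reads (913 to 2109 counts), ranged from 48.0 to 88.9 CPM in MS (median 51.1) and from 55.1 to 88.3 CPM in SR (median 69.0). Its groups overlap widely, and the log2 fold change of -0.16 had an SE of 0.121.

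mt-Co1, mt-Co2 and mt-Co3 form the core of cytochrome c oxidase, mt-Co1 with the site where oxygen is reduced and mt-Co2 with the copper site that takes electrons from cytochrome c. mt-Co1 had 10072, 11337 and 13745 CPM (lowest, median and highest) in MS and 11559, 12192 and 13451 CPM in SR, and its log2 fold change was -0.08 (SE 0.0495, edgeR adjusted p = 0.574), or -0.02 with A2 included. mt-Co2 had 3533, 3903 and 4752 CPM against 3829, 4161 and 4438 CPM, and mt-Co3 had 3302, 3905 and 4790 CPM against 3889, 4198 and 4439 CPM. For all 3 mRNAs, 6 of 8 MS mice are below the SR median while the highest value of all belongs to an MS mouse, C1 for mt-Co2 and C2 for the other 2. The log2 fold changes of mt-Co2 (-0.03, SE 0.0520) and mt-Co3 (-0.04, SE 0.0546) were smaller than their SE, and both were above 0 when A2 was included (0.0088 and 0.0048).

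mt-Rnr2, the large subunit rRNA, had 2607 CPM in the lowest, 2995 in the median and 3822 in the highest MS mouse, and 2497, 2779 and 3090 CPM in SR. Of the 8 MS mice, 7 lie above the SR median and 3 above every SR mouse. Its log2 fold change was 0.14 (SE 0.0586, edgeR adjusted p = 0.375). This value was 0.08 without C1 and 0.02 without set C, and 0.21 without set B. mt-Rnr1, the small subunit rRNA, had 1345, 1513 and 2169 CPM against 1385, 1572 and 1788 CPM, with 2 MS mice above and 2 below all SR mice, and a log2 fold change of 0.03 (SE 0.0726, edgeR adjusted p = 0.901). Without C1, its highest mouse, the log2 fold change was -0.04, and without the whole of set C -0.14.

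**Figure D2:**
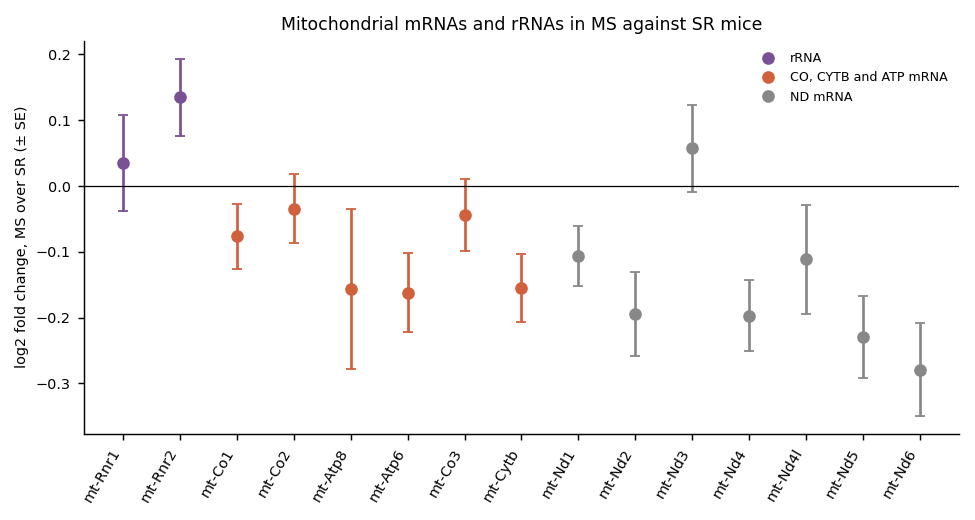
Log2 fold change of MS over SR mice (y axis, bars: standard error of the edgeR fit, 8 MS and 12 SR mice) for the 2 rRNAs, the 6 mRNAs described here and the 7 complex I (ND) mRNAs. The rRNAs lie above 0, with the bar of mt-Rnr1 crossing it, and the 6 mRNAs below 0.

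Over the 20 mice, Pearson's r of log2 CPM was 0.51 to 0.97 among the 6 mRNAs (median 0.82, 15 pairs), highest for mt-Atp6 with mt-Cytb, 0.82 between the rRNAs, and -0.07 to 0.58 between an rRNA and an mRNA (median 0.37, 12 pairs). The lowest values among mRNAs were those with mt-Atp8, and without it they were 0.70 to 0.97. Relative to the mean of each condition, r was higher in all 12 pairs of an rRNA and an mRNA. It ran from 0.27 (mt-Rnr2 with mt-Atp8) to 0.70 (mt-Rnr2 with mt-Co2), beside 0.44 to 0.95 among the mRNAs and 0.89 between the rRNAs. These values describe genes counted in the same libraries, with the shared depth and copies named above.

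A ratio of counts within a library does not depend on the library's scaling, and 9 pairs were compared by a two-sided exact permutation test over all 125970 splits of the 20 mice, with p-values adjusted by the Benjamini-Hochberg method over the 9. In 5 of the 9 pairs the ratio differed between MS and SR mice in this test. The pairs share genes, so these are not 5 separate results, and how often other pairs of genes would pass was not tested. mt-Rnr2 was higher relative to mt-Co1 and to mt-Rnr1, mt-Co3 was higher relative to mt-Atp6, and mt-Cytb and mt-Atp6 were lower relative to mt-Co1. These p-values treat mice as independent. Over means of the 7 sets (3 against 4, smallest possible p 0.0286), none of the 5 passed (adjusted exact permutation p of 0.0857 to 0.214), although each difference was of the same sign and of similar size.

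For mt-Co3 over mt-Atp6, the counts' ratio was 0.759, 0.803 and 0.855 in the lowest, median and highest MS mouse and 0.695, 0.739 and 0.762 in SR. In 7 of 8 MS mice it was above that of every SR mouse. The difference in mean log2 ratio was 0.12 (SD 0.0592 in MS, 0.0360 in SR, adjusted exact permutation p = 0.000214, n = 8 and 12). These genes are neighbours that meet at the shared base shown above, with no tRNA between them. Both have a near-identical copy on chromosome 1, and with the copies' counts added to theirs the difference was 0.13 (adjusted exact permutation p = 0.000143). The log2 counts of the copies followed those of mt-Co3 and mt-Atp6 closely over mice (Pearson's r 0.9996 and 0.9986). Adding them could therefore hardly change the ratio, and how shared reads were counted was not tested by it. All 3 MS set means (0.788 to 0.847) lie above all 4 SR set means (0.724 to 0.751). The unadjusted exact permutation p over sets was 0.0286, the smallest possible, and adjusted over the 9 pairs it was 0.0857, which does not pass. The difference was 0.14 (adjusted exact permutation p = 0.00899, n = 5 and 9) within the low range and 0.08 (adjusted exact permutation p = 0.15, n = 3 and 3, the unadjusted p of 0.1 being the smallest possible) within the high range of animal numbers.

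For mt-Rnr2 over mt-Co1, the ratio was 0.234, 0.254 and 0.304 in MS and 0.212, 0.228 and 0.248 in SR. All 8 MS mice lie above the SR median and 6 above every SR mouse. The difference in mean log2 ratio was 0.21 (SD 0.145 and 0.0606, adjusted exact permutation p = 0.000357, n = 8 and 12), and the means were 0.264 ± 0.0271 and 0.228 ± 0.00959. The set means were 0.243 to 0.277 in MS and 0.220 to 0.236 in SR and do not overlap. The highest values were in A1 (0.302) and C1 (0.304). Without these 2 mice the difference was 0.14 (adjusted exact permutation p = 0.00242, n = 6 and 12), so it was smaller but still past the threshold.

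mt-Rnr2 over mt-Rnr1, the large over the small subunit rRNA, was 1.76, 1.95 and 2.04 in MS and 1.63, 1.80 and 1.93 in SR (log2 difference 0.11, adjusted exact permutation p = 0.0149, n = 8 and 12). Without set A, B or F it missed the threshold (adjusted exact permutation p of 0.0705, 0.125 and 0.0701). The ratio was highest in sets A (1.96 and 2.04) and B (1.94 to 2.01), and in set C (1.76 to 1.89) it lay inside the SR range. Within the low range the log2 difference was 0.18 and within the high range -0.03. mt-Rnr1 over mt-Co1 did not pass (log2 difference 0.10, SE 0.0743, adjusted exact permutation p = 0.167, n = 8 and 12), with ratios of 0.119 to 0.173 in MS and 0.115 to 0.142 in SR.

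mt-Cytb over mt-Co1 was 0.345, 0.371 and 0.394 in MS and 0.369, 0.394 and 0.407 in SR (log2 difference -0.08, adjusted exact permutation p = 0.00657, n = 8 and 12), and mt-Atp6 over mt-Co1 was 0.383, 0.436 and 0.459 against 0.444, 0.459 and 0.483 (log2 difference -0.09, with the same adjusted p). No MS mouse was above the SR median in either ratio. Without set A both missed the threshold (-0.06 and -0.05, adjusted exact permutation p = 0.0551 and 0.0584, n = 6 and 12). mt-Co2 over mt-Co1 (log2 difference 0.04), mt-Co3 over mt-Co1 (0.03) and mt-Atp8 over mt-Atp6 (-0.0059) did not pass (SE 0.0286, 0.0226 and 0.125).

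**Figure D3:**
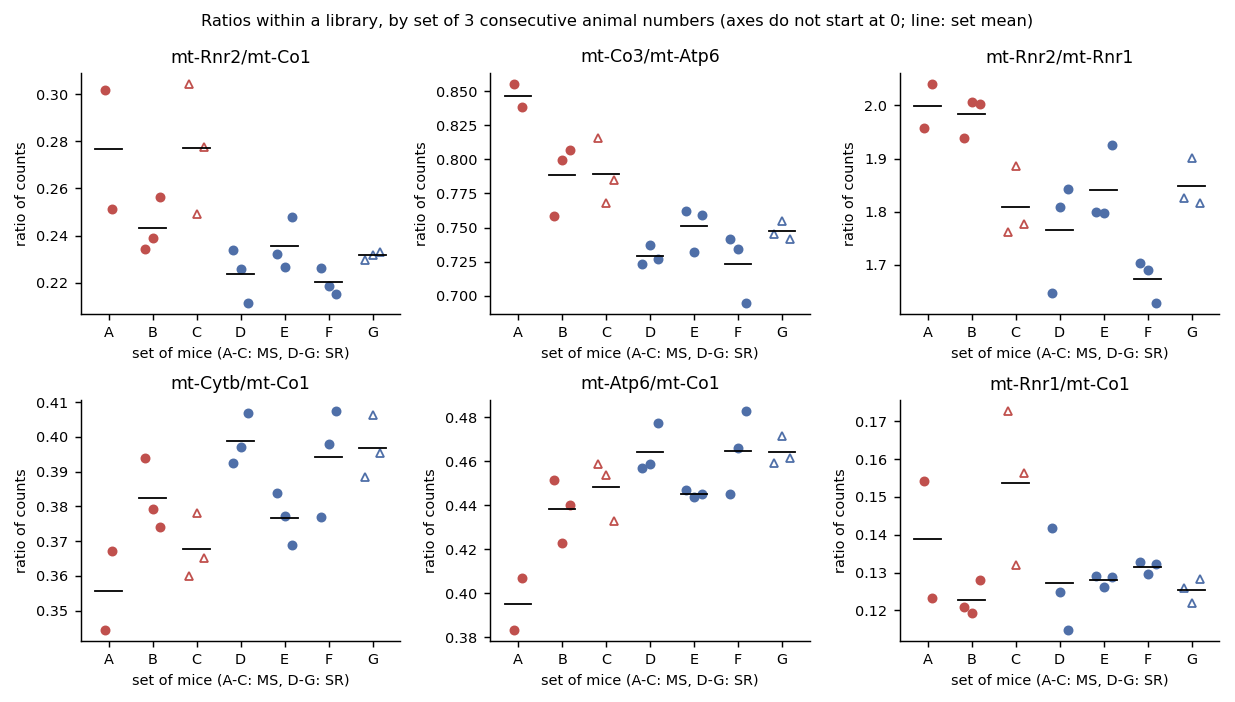
Ratio of raw counts of 2 genes within a library (y axis, not starting at 0) by set of mice (A to C: MS, red; D to G: SR, blue; open triangles: high range of animal numbers), with a line at each set mean. For mt-Rnr2/mt-Co1 and mt-Co3/mt-Atp6 the 3 MS set means lie above the 4 SR set means, and for mt-Rnr2/mt-Rnr1 set C lies among the SR sets.

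As shares of all mitochondrial counts, the rRNAs together took 8.47 to 11.4% in MS (mean 9.76 ± 1.16, SD) and 7.57 to 9.16% in SR (mean 8.45 ± 0.419), the 6 mRNAs 60.5 ± 0.632% and 60.1 ± 0.469%, and the complex I mRNAs 29.6 ± 1.42% and 31.4 ± 0.736%. These shares sum to nearly the whole in each library, so a higher share of one goes with a lower share of another. In library A2 the rRNAs took 7.96%, within the SR range and below all other MS mice. The correlation of a library's log2 CPM with gene length was 0.458 to 0.500 in MS and 0.477 to 0.495 in SR, lowest in C1, and the log2 ratio of mt-Rnr2 to mt-Co1 had Pearson's r of -0.36 with it (n = 20, permutation p = 0.119, adjusted over 3 ratios 0.178; Spearman's rho -0.13, permutation p = 0.595, adjusted 0.595), and 0.07 without C1 and C2. For mt-Rnr1 over mt-Co1 it was -0.45 (n = 20, permutation p = 0.0474, adjusted 0.142; Spearman's rho -0.43, permutation p = 0.0562, adjusted 0.169), and -0.03 without C1 and C2, and for mt-Rnr2 over mt-Rnr1 0.14 (permutation p = 0.567, adjusted 0.567; Spearman's rho 0.14, permutation p = 0.562, adjusted 0.595). With this correlation as a term the log2 difference in mt-Rnr2 over mt-Co1 was 0.20 and in mt-Co3 over mt-Atp6 0.12.

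The comparison of MS with SR was also made within each range of animal numbers, and the difference between the ranges was tested. mt-Rnr1 was lower in the 5 MS mice of sets A and B that were used (1345 to 1553 CPM; A2, left out, had 1670) than the mean of the SR mice of that range (set means 1536 to 1651 CPM), and higher in the 3 mice of set C (1745 to 2169 CPM) than in set G (1470 to 1488 CPM). The log2 fold change was -0.16 (SE 0.0533) in the low range and 0.37 (SE 0.0996) in the high range, and the difference was 0.53 (SE 0.103). Tested by edgeR as an interaction, this had an unadjusted p of 3.4e-05 and an adjusted p of 0.251, and by DESeq2's Wald test an adjusted p of 0.00239. The difference was positive for all 8 RNAs, from 0.20 for mt-Cytb to 0.55 for mt-Atp8, and 7 of the 8 had an unadjusted edgeR p under 0.05, as had 8.67% of all genes, but none was called (0% of all genes). With A2 included, 2 of the 8, mt-Rnr1 and mt-Rnr2, had an unadjusted edgeR p under 0.05. DESeq2 called mt-Rnr1 alone of the 8 (0.110% of all genes). The high range rests on 3 mice of 1 set in each condition, so set and range cannot be told apart there.

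Within the low range, with 5 MS and 9 SR mice, edgeR called 1.25% of 18395 genes, among them mt-Atp6 (log2 fold change -0.28, SE 0.0567, adjusted p = 0.0283) and mt-Cytb (-0.22, SE 0.0532, adjusted p = 0.0469). The other 4 mRNAs were between -0.31 and -0.11 and mt-Rnr2 was at 0.01 (SE 0.0546). Within the high range, with 3 and 3 mice, none of the 17940 genes was called (0%), and mt-Rnr2 (0.34, SE 0.0982) and mt-Rnr1 had the largest log2 fold changes of the 8.

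**Figure D4:**
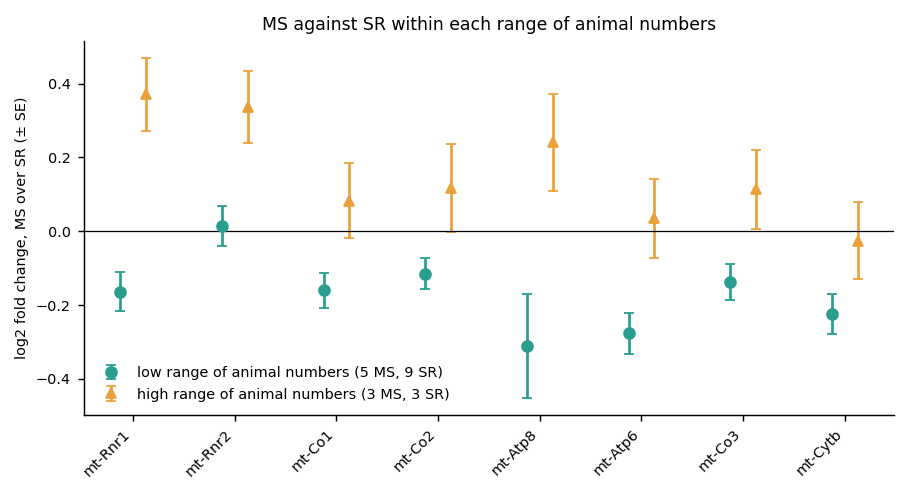
Log2 fold change of MS over SR (y axis, bars: standard error, edgeR) of the 8 RNAs within the low range (5 MS and 9 SR mice, circles) and the high range (3 and 3 mice, triangles) of animal numbers. Every triangle lies above its circle, and mt-Rnr1 goes from -0.16 to 0.37.

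Over the 20 mice, the nuclear partners of these subunits had differences of the other sign. The negative sign of the mitochondrial mRNAs did not hold in every choice of mice. Within the high range mt-Co1 (0.08), mt-Co2 (0.12), mt-Co3 (0.11), mt-Atp6 (0.04) and mt-Atp8 (0.24) were positive and mt-Cytb was at -0.03. With A2 included mt-Co2 (0.0088) and mt-Co3 (0.0048) were positive. Of the nuclear-encoded subunits tested, all 9 of complex III, all 15 of complex IV and all 17 of complex V had positive log2 fold changes, with medians of 0.19, 0.20 and 0.17, beside -0.15 for mt-Cytb, a median of -0.04 for the 3 mt-Co mRNAs and one of -0.16 for mt-Atp6 and mt-Atp8. No nuclear subunit was called by edgeR, and 6, 13 and 11 of them had an unadjusted p under 0.05 in this direction, as had 6.62% of all genes. The smallest p of each group belonged to Uqcrh, a hinge protein of complex III (51.1 ± 5.37 and 42.7 ± 2.52 CPM, log2 fold change 0.26, edgeR adjusted p = 0.111), Cox5a (0.19, edgeR adjusted p = 0.111) and Atp5l, subunit g of the ATP synthase (0.30, edgeR adjusted p = 0.111), followed by Uqcr10 (0.30), Cox6b1 (0.21) and Atp5h (0.21). All 6 of these were called without C3 (edgeR adjusted p of 0.0047 to 0.0318) and without set C, Uqcrh, Uqcr10, Cox5a and Atp5l also without C2, and all but Atp5h by DESeq2. Within a mouse, the mean log2 CPM of the mitochondrial minus the nuclear subunits was 6.12 ± 0.238 in MS and 6.44 ± 0.0742 in SR for complex III, 7.41 ± 0.234 and 7.66 ± 0.0832 for complex IV and 2.84 ± 0.251 and 3.17 ± 0.122 for complex V. In each complex 6 of 8 MS mice lie below all 12 SR mice. The nuclear subunits differ between the groups in earlier results of these data, so these values are given with no test.

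**Figure D5:**
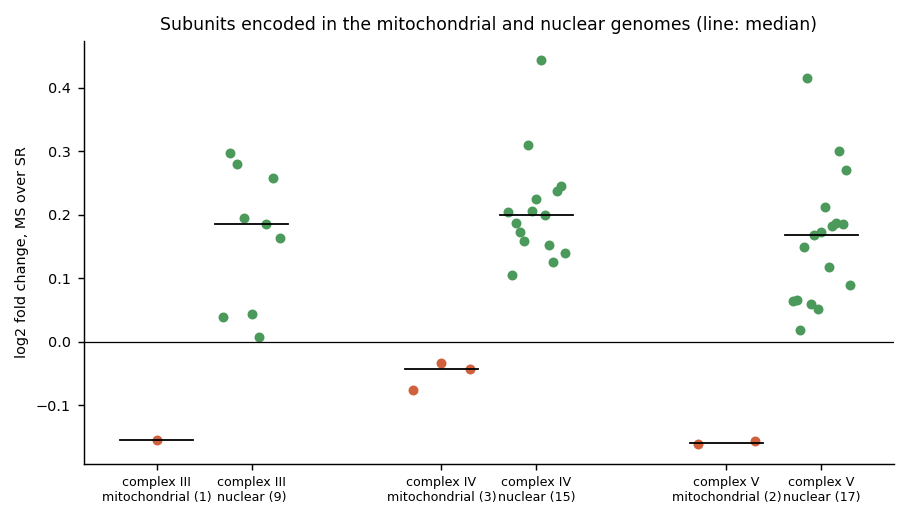
Log2 fold change of MS over SR (y axis; 8 MS and 12 SR mice) of each mitochondrially (orange) and nuclear (green) encoded subunit of complexes III, IV and V, with a line at the median. All nuclear subunits lie above 0 and all 6 mitochondrial ones below it.

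Genes that copy and transcribe the mitochondrial genome, mature its RNAs or assemble complexes III to V had median log2 fold changes near 0. Of 13 genes of mitochondrial transcription and replication, none was called by edgeR and 1 had an unadjusted p under 0.05 (6.62% of all genes in this direction), Mgme1 (a nuclease of mitochondrial DNA; log2 fold change 0.20, SE 0.0799), with a median of -0.01. Twnk, the replicative helicase (0.08), Polrmt, the mitochondrial RNA polymerase (-0.04), and Top1mt, a topoisomerase (-0.04), were near 0. Among 19 genes of RNA maturation the median was 0.03. Fastkd2, which binds the large subunit rRNA and is needed for its ribosome subunit, had the smallest p (17.7 ± 0.870 and 15.6 ± 1.44 CPM, log2 fold change 0.19, SE 0.0553, edgeR adjusted p = 0.189), and Fastkd3 (0.12), Pnpt1, an RNA-degrading phosphorylase (-0.12), and Elac2, which cuts tRNA 3′ ends (-0.06), came next in each direction. The 17 genes of rRNA modification and ribosome assembly held none with an unadjusted p under 0.05, with Mtg2 (0.11), Gtpbp10 (0.11), Ddx28 (-0.09) and Tfb1m, a methyltransferase of the small subunit rRNA (-0.10), having the smallest p in each direction. Of 16 tested genes for translation and assembly of these subunits, 3 had an unadjusted p under 0.05 and were higher and 1 was lower, beside 6.62% and 4.92% of all genes. Cox14 (0.24) and Uqcc2 (0.27), assembly factors of complexes IV and III, were higher, and Cox10, of heme a synthesis (-0.11), and Oxa1l, the insertase of the inner membrane (-0.06), were lower, none of them called.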

How the data were processed

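Counts per gene, deposited by the authors as a table of 21 libraries, came from paired reads (NEBNext Ultra II Directional, NovaSeq6000) aligned with STAR 2.7.3a to GRCm38 and counted with featureCounts; strand setting and treatment of multi-mapping reads are not given in the sources used here. From them, CPM (TMM-scaled, edgeR 4.0.16, R 4.3.3) and edgeR quasi-likelihood fits (robust, genes passing filterByExpr at a minimum count of 10) were computed here over 18146 genes, with adjusted p under 0.05 called. Exact permutation tests used Python 3.11.15; copies were sought with BLAST+ 2.17.0. DESeq2 was 1.42.0 and limma 3.58.1. Ensembl ids were matched to symbols for 55141 of 55487 genes. Both tests were tried on simulated data with independent mice and no sets. For the permutation test these had fewer mice than here and equal spread in both groups.

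Genes, lists and tests were chosen with earlier results of these data known. The rule named all 8 genes and, from each other list, the 2 higher and the 2 lower in MS with the smallest p; marker lists are given as sums. Mice sharing a nest are not independent, and p-values over mice do not allow for that. No 2 libraries of a group agreed within sampling noise (lowest chi-square per degree of freedom, 3.58). The alternatives tried were the choice of libraries, test, normalization, filter, covariates, sets as units, each mouse or set left out, and copies added; mt-Cytb as denominator, values within ranges, the length term for ratios and leaving out A1 and C1 were chosen after seeing the data.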

Additional observations from a re-analysis of the deposited data

Results flagged for a closer look

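One MS mouse stood far from the other 7 in 1 of 17 values tested (8 levels and 9 ratios), where chance marks about 1 in 20. A3 had a ratio of mt-Atp8 to mt-Atp6 of 0.0196, and the other MS mice had 0.00998 to 0.0124. The SR mice had 0.00982 to 0.0150.

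For mt-Rnr1, the fitted log2 fold change of MS over SR was negative in the low and positive in the high range of animal numbers. The high range has 3 mice of 1 set in each condition, so set and range cannot be told apart there. By DESeq2's Wald test the log2 fold change was 0.53 higher in the high than in the low range (adjusted p = 0.00239), where edgeR gave an adjusted p of 0.251. Each of the 5 MS mice of the low range other than A2 lay below the mean of the SR mice of its range, with a log2 fold change of -0.16, and each of the 3 MS mice of the high range lay above, with 0.37. A2, which belongs to the low range, had 1670 CPM, inside the range of the SR mice.

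The left-out MS library A2 had more of 6 of the 8 RNAs than any SR library: 3305 CPM of mt-Rnr2 (highest SR library 3090), 15604 CPM of mt-Co1 (13448), 5115 CPM of mt-Co2 (4437), 6721 CPM of mt-Atp6 (5985), 5276 CPM of mt-Co3 (4438) and 6058 CPM of mt-Cytb (5070). Its mitochondrial share was 6.23% of the library. A2 also stood apart in Penk and Dsp, and the part of tissue composition in these levels was not tested.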

How the results depend on the processing

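Over both ranges of animal numbers, none of the 8 RNAs was called between MS and SR in any alternative but 2; within the low range mt-Atp6 and mt-Cytb were called. Leaving out each mouse in turn called 0 to 1 (mt-Cytb, without C2), and leaving out set C called 2 (mt-Atp6, -0.26, and mt-Cytb, -0.21). The interaction with the range of animal numbers called 1 by DESeq2 and 0 otherwise, and unadjusted p under 0.05 fell from 7 to 2 of the 8 with A2 included. mt-Rnr1 was below 0 with the length trend as a term (-0.0083), without C1 (-0.0388, the lowest of -0.0388 to 0.0671 over single mice left out), without A1 and C1 (-0.0431) and without set C (-0.136). Including A2 turned mt-Co2 (0.00876) and mt-Co3 (0.00479) positive, as leaving out set A did mt-Co3 (0.0107). Without set C, mt-Nd3 (-0.0110), Polrmt (0.0129) and Gm28438 (-0.00807) changed sign, the last also without C2 (-0.00023, and up to 0.0894 without another mouse).

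Log2 ratio differences past the threshold lost it as follows. Over set means mt-Rnr2/mt-Rnr1 was 0.115, mt-Rnr2/mt-Co1 0.216, mt-Cytb/mt-Co1 -0.0876, mt-Atp6/mt-Co1 -0.107 and mt-Co3/mt-Atp6 0.131. mt-Rnr2/mt-Rnr1 missed it without set A (0.0888), B (0.08) or F (0.0788), mt-Cytb/mt-Co1 (-0.0623) and mt-Atp6/mt-Co1 (-0.0521) without set A, and mt-Cytb/mt-Co1 (-0.0693) within the low range. Within the high range, where 3 against 3 mice cannot pass, values were -0.0319 for mt-Rnr2/mt-Rnr1, 0.253 for mt-Rnr2/mt-Co1, -0.11 for mt-Cytb/mt-Co1, -0.04998 for mt-Atp6/mt-Co1 and 0.0787 for mt-Co3/mt-Atp6. Leaving out single mice lost none of the 5. mt-Rnr1/mt-Co1 passed without set B (0.197) and as mt-Rnr1/mt-Cytb (0.182) but was -0.0023 within the low range. mt-Co2/mt-Co1 passed without set C (0.0427) and without C3, with 0.0209 to 0.0578 over single mice left out. mt-Atp8/mt-Atp6 had no stable sign: -0.109 to 0.0296 without single mice, 0.131, 0.0155, 0.0094 and 0.0563 without sets B, C, D and F, 0.0382 over set means and 0.189 in the high range. The cause of these changes was not tested.

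No paired analysis was possible because the labels carry no replicate numbers; those used here were given in accession order. Sets and nests, copies that share sequence, and the 3 against 3 mice of the high range limit these values. mt-Atp8, at 913 to 2109 counts, has the least depth.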

Other observations

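Of the 22 mitochondrial tRNAs, 10 had enough counts to be tested, 8 of them with a positive and 2 with a negative log2 fold change (median 0.28). None was called by edgeR (0.0110% of all genes). At an unadjusted edgeR p under 0.05, 4 were higher and 0 lower in MS, beside 6.62% and 4.92% of all genes. mt-Tn (4.32 ± 0.844 CPM in MS, SD, and 3.33 ± 0.544 in SR, log2 fold change 0.38) and mt-Ty (0.48) had the smallest p among those higher, and mt-Tp (-0.18) and mt-Tl1 (-0.09) among those lower. Among the 7 complex I mRNAs, the median log2 fold change was -0.195, further below 0 than the -0.12 of the 6 mRNAs described here. Of the 7, 5 were lower in MS at an unadjusted edgeR p under 0.05, beside 4.92% of all genes, and none was called (0.0110% of all genes). mt-Nd6 (-0.28) and mt-Nd5 (-0.23) had the smallest p and mt-Nd3 (0.06) was the one with a positive value. Among copies of mitochondrial sequence on chromosome 1, the log2 fold changes were -0.21 for Gm28439, -0.17 for Gm10925 and 0.05 for Gm28438, and 0.0024 (SE 0.0608) for Gm29216, the copy of the end of mt-Co1, and Gm13340, the copy of mt-Co1 on chromosome 2 with 77 to 233 counts, had 0.17 (SE 0.185).

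Over the 20 mice, the genes outside the mitochondrial genome whose log2 CPM followed the mean of the 6 mRNAs most closely, of 15833 compared, were the copies Gm10925 (Pearson's r 0.93), Gm28437 (0.90) and Gm28661 (0.87), which share sequence with them, then Gm19938 (0.82) and Gm8738 (0.80). Nearest to the mean of the 2 rRNAs were Ensa, an inhibitor of a protein phosphatase (0.84), Sdhaf2, an assembly factor of complex II (0.82), Lysmd1 (0.81), Adk, adenosine kinase (0.81), and Egln1, a prolyl hydroxylase (0.79). These are the highest of many values and are given as a description.

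Gm10925 had more counts than mt-Atp6 and mt-Atp8 together in all 20 libraries, by 9984 to 20637 counts, or 9.42 to 12.7% of its own. In the annotation used here no other gene overlaps Gm10925, as mt-Atp8 does mt-Atp6. Whether reads across that overlap were left out at the mitochondrial genes was not tested.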
